A study of Mus musculus with 18 samples.

Results

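The cluster of miR-199 and miR-214 is a set of vertebrate microRNAs made in mouse from 2 short hairpins inside the long noncoding RNA Dnm3os, with further miR-199 hairpins elsewhere in the genome. It was followed here in mouse kidney through 5 names of the deposited table, mmu-miR-199a-5p, mmu-miR-199a-3p, mmu-miR-199b-5p, mmu-miR-214-3p and mmu-miR-214-5p (the species prefix is left out below). These 5 names stood on 8 of the 1184 named rows. Rows with equal counts in every library were counted once, which left 4 distinct entries: miR-199b-5p carried the same counts as miR-199a-5p in all 18 libraries, so that the pair is given as miR-199a-5p and cannot be told apart. Members were chosen by name and not by their values.

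The treated group was C57BL/KsJ mice with diabetic nephropathy that received 10 mg/kg/day of germacrone, a sesquiterpene of plants. The diabetic nephropathy group, called DN here and in the labels' titles, consisted of C57BL/KsJ mice that received 0.9% saline instead. Control mice were of the strain C57BL/6J and also received 0.9% saline. Each group had 6 libraries of small RNA from whole kidney, numbered 1 to 6. The labels used here give no age and no diabetes allele, and nothing in them ties each library to an animal of its own. The p-values below therefore cover only the spread among these libraries, part of which may be technical. Since control mice were of another strain, effects of strain and of disease cannot be told apart in comparisons with control.

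A hairpin can yield a mature microRNA from each of its strands, the 5p strand from its first arm and the 3p strand from its second. A mature microRNA pairs with messenger RNAs mainly through its seed, the bases after the first, and lowers their translation and stability. The miR-199 and miR-214 strands are known as microRNAs of mesenchymal cells such as fibroblasts, pericytes and mesangial cells, where the transcription factor Twist1 can drive Dnm3os. In mouse kidney injury, miR-214-3p has been described as promoting fibrosis. In fibroblasts miR-199a-5p lowers caveolin-1, and miR-199a-3p has Mtor and the receptor Met among its described targets.

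The mature strands are shown for their seeds and for their base composition, which is taken up again further on. They were read from RefSeq on build GRCm38.p6, with the seed (bases 2 to 8) in capitals.
miR-199a-5p: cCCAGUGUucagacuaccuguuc
miR-199a-3p: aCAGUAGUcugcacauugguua
miR-214-3p: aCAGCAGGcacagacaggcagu
miR-214-5p: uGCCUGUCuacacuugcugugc
The seeds of miR-199a-5p and miR-214-5p were found in no other mouse mature microRNA of the RefSeq table. That table has no mature miR-199b-5p, however, and the Mir199b hairpin holds the seed of miR-199a-5p. The whole sequence of miR-199a-5p is not in that hairpin, although the names miR-199a-5p and miR-199b-5p carried equal counts. The seed of miR-199a-3p was shared with miR-199b-3p, whose 22 bases were identical to it and which has no name of its own in the deposited table. The seed of miR-214-3p was shared with miR-761, also not a name in the table. The 3p strands of both families resembled each other: miR-199a-3p and miR-214-3p shared their first 4 bases, and 5 of the 7 seed bases were alike. Their base composition did not: G and C made up 40.9% of miR-199a-3p, 52.2% of miR-199a-5p, 54.5% of miR-214-5p and 59.1% of miR-214-3p.

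Both hairpins of the cluster lie on the plus strand of chromosome 1, in the exon of Dnm3os (chr1:162217623-162225550), which runs within an intron of Dnm3 on the opposite strand. Mir199a-2 occupies chr1:162217814-162217923 and Mir214 chr1:162223368-162223477, with 5444 bases between them. The hairpins are shown with both mature strands in capitals.
Mir199a-2: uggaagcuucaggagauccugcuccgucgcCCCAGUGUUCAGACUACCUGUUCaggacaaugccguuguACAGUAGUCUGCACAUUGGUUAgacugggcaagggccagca
Mir214: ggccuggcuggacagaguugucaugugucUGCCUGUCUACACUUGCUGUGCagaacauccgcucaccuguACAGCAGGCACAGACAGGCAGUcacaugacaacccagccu
The same miR-199a strands are also encoded by Mir199a-1 (chr9:21496495-21496564, minus strand), in an intron of Dnm2 on the opposite strand, and miR-199b-3p is encoded by Mir199b (chr2:32318460-32318569, plus strand), in an intron of Dnm1 on the opposite strand. The miR-199a entries therefore cannot be assigned to 1 locus, whereas Mir214 was the only hairpin found for both miR-214 strands. The counts reflect these copies. miR-199a-3p stood on 3 equal rows, miR-199a-5p on 2 equal rows plus the equal row of miR-199b-5p, and each miR-214 strand on 1 row. The counts of miR-199a-5p were whole numbers in 6 of the 18 libraries and those of miR-199a-3p in 4, but all became whole when multiplied by 3, whereas both miR-214 strands were whole in all 18. How the authors shared reads between rows is not stated in these sources, so the level of a miR-199a entry relative to a miR-214 entry depends on that choice. If reads were shared alike in every library, the choice is a constant factor and leaves differences between libraries unchanged. Whether they were shared alike was not tested.

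Library totals ran between 3645173 and 7239343 counts. A few libraries, DN 2, DN 3 and control 2, stood apart, and the results below are given with and without them. Median correlation of log2 levels with the libraries of its own group was 0.896 for DN 2, 0.926 for DN 3 and 0.946 for control 2, and lay between 0.958 and 0.973 for the 15 others. The leukocyte marker list was summed over its 8 tested entries of 9 (miR-223-5p had too few counts). In CPM (counts per 1000000 counts of a library, with library sizes scaled by edgeR's TMM factors) it came to between 1847 and 9118 CPM in treated, 1590 and 25968 CPM in DN and 3177 and 4229 CPM in control libraries, with the DN maximum in DN 2 and no other DN library above 2363 CPM. The treated maximum was in treated 6, at rank 2 of 18, and no other treated library was above 3080 CPM. The tubule and collecting duct epithelium list (10 of 10 entries tested) summed to 44067 CPM in DN 2, the lowest of the 18 libraries. In DN 3 and control 2 the level of other microRNAs, relative to their means, rose steeply with their GC content, as described further on.

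All 4 entries were well detected, and miR-199a-3p was the most abundant. Averaged over the 18 libraries, miR-199a-3p stood at 1786 CPM, miR-199a-5p at 737 CPM, miR-214-3p at 380 CPM and miR-214-5p at 16.9 CPM, which placed them at ranks 56, 90, 123 and 327 of the 532 distinct entries tested. The rarest, miR-214-5p, rested on 32 to 481 reads a library. The 8 rows together took 0.578% to 0.847% of the counts in 17 libraries and 2.41% in DN 2.

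The clearest pattern was that of 1 library. DN 2 held the highest level of all 18 libraries for each of the 4 entries. Relative to the median of the other 5 DN libraries, it was 3.10-fold higher for miR-199a-5p, 2.62-fold for miR-199a-3p, 7.34-fold for miR-214-3p and 5.89-fold for miR-214-5p. The miR-214 strands were thus raised more than the miR-199a strands in that library. Over the other 17 libraries the highest and the lowest level differed 2.43-fold for miR-199a-5p, 2.36-fold for miR-199a-3p, 4.19-fold for miR-214-3p and 2.46-fold for miR-214-5p.

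miR-199a-5p had 661, 767 and 1109 CPM as the lowest, median and highest value in treated libraries, 464, 672 and 1935 CPM in DN libraries and 457, 584 and 685 CPM in control libraries. The high values were treated 3 and DN 2. Treated and control libraries overlapped only at the edge, where treated 1 (661 CPM) lay below control 1 (677 CPM) and control 6 (685 CPM), while DN libraries spanned both groups. The means were 808 ± 156 CPM in treated, 825 ± 556 CPM in DN and 579 ± 96.6 CPM in control libraries (SD, n = 6 each).

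miR-199a-3p had 1581, 1800 and 2203 CPM (lowest, median, highest) in treated, 1331, 1621 and 4224 CPM in DN and 934, 1649 and 1915 CPM in control libraries. All 3 groups overlapped between 1581 and 1915 CPM. The lowest libraries were control 2 and control 3, and the highest DN 2 and treated 3. The means were 1830 ± 234, 1993 ± 1099 and 1534 ± 398 CPM in treated, DN and control libraries (SD, n = 6 each), and without DN 2 the DN mean was 1546 ± 130 CPM (SD, n = 5).

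miR-214-3p had 219, 260 and 335 CPM (lowest, median, highest) in treated, 140, 221 and 1608 CPM in DN and 256, 358 and 548 CPM in control libraries. Within DN, 4 libraries lay between 140 and 223 CPM, below every control library, while DN 3 (586 CPM) and DN 2 lay above every control library. Control 2, control 5 and control 3 were the highest controls at 548, 462 and 418 CPM. The mean of 494 ± 569 CPM in DN, against 269 ± 48.1 CPM in treated and 376 ± 118 CPM in control libraries (SD, n = 6 each), thus described no DN library well.

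miR-214-5p, the rarer strand of the same hairpin, had 8.80, 15.9 and 21.7 CPM (lowest, median, highest) in treated, 10.0, 12 and 70.0 CPM in DN and 8.82, 13.6 and 18 CPM in control libraries. Apart from DN 2 all libraries shared 1 range. DN 3 and control 2, which were high for the 3p strand, were low for the 5p strand at 10.3 and 8.82 CPM. The means were 15.5 ± 4.23, 21.6 ± 23.8 and 13.5 ± 4.03 CPM in treated, DN and control libraries (SD, n = 6 each).

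**Figure D1:**
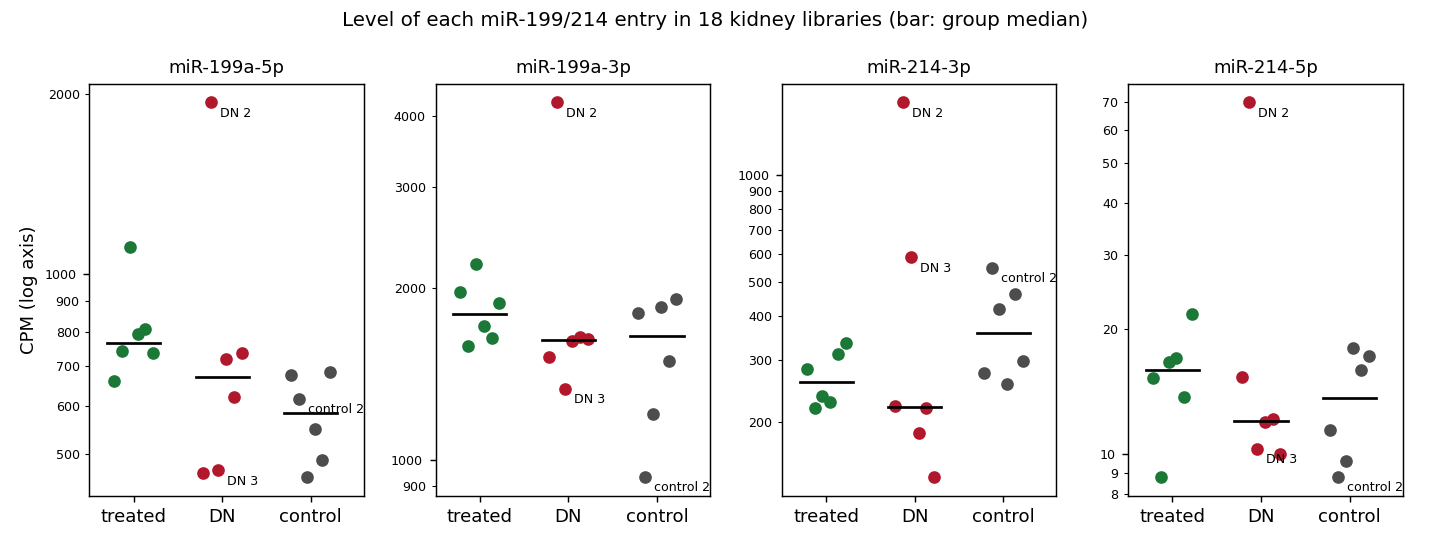
CPM on a log axis for each of the 4 distinct entries, 1 panel each, with 1 point per library in treated (green), DN (red) and control (grey) and a bar at the group median. DN 2 lies above every other library in all 4 panels, while DN 3 and control 2 are high only in the panel of miR-214-3p.

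The comparison of DN with control asked how the diabetic kidney differed from the control kidney. No entry of the cluster passed the test with all 18 libraries: edgeR's quasi-likelihood test with Benjamini-Hochberg adjustment called 0 of the 619 tested entries at an adjusted p under 0.05 (0%), and 47 had an unadjusted p under 0.05 (7.59%), none of them a member. DESeq2 called 4 entries (0.803% of the 498 to which it gave an adjusted p) and limma-voom with sample weights 91 (14.7% of 619). In whole tissue, a change in the number of cells of a type and a change in RNA per cell cannot be told apart. The fitted log2 fold change (log2FC, DN over control, with its standard error, SE) was 0.51 ± 0.287 for miR-199a-5p and 0.38 ± 0.257 for miR-199a-3p, with adjusted p of 0.684 and 0.706 from edgeR. It was 0.39 ± 0.467 for miR-214-3p and 0.69 ± 0.439 for miR-214-5p, with adjusted p of 0.869 and 0.706. Above the control median lay 4 of 6 DN libraries for miR-199a-5p, but 1 of 6 for miR-199a-3p and 2 of 6 for each miR-214 strand.

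Without DN 2, the DN to control difference nearly vanished for miR-199a and turned round for miR-214. The log2FC was 0.079 for miR-199a-5p, 0.033 for miR-199a-3p, -0.41 for miR-214-3p and -0.16 for miR-214-5p, and edgeR called none of the 4 (6 of 630 entries, 0.952%). With DN 2, DN 3 and control 2 all left out, miR-214-3p was lower in DN: it had 140 to 223 CPM in the 4 DN libraries, against 256 to 462 CPM in the 5 control libraries, a log2FC of -0.86 ± 0.223 with an adjusted p of 0.0349 from edgeR. These groups did not overlap, as was true of 11.1% of the 619 entries with the same libraries left out. edgeR then called 51 of 636 entries (8.02%), among them 1 of the 4 members. The 2 DN libraries left out were those with the highest miR-214-3p, so the direction is not independent of that choice. Leukocyte markers were also lower in these DN libraries: their sum was 1590 to 1854 CPM in the 4 DN libraries, against 3177 to 3814 CPM in the 5 control libraries. Of the libraries left out, DN 2 and control 2 were the highest of their groups for both. In DN 3 the leukocyte sum (2363 CPM) lay below every control library, while miR-214-3p (586 CPM) lay above every control library. In the fit without DN 2, DN 3 and control 2, 7 of the 9 leukocyte entries were tested. All 7 were fitted lower in DN (median log2FC of -0.85), with miR-150-5p (-1.34) and miR-155-5p (-1.01) called by edgeR. Their part in the value of miR-214-3p was not tested. limma-voom, which kept every library but weighted it by its fit, gave -0.83 with an adjusted p of 0.0185 for miR-214-3p, beside its 14.7% of all entries. Such weights count libraries that depart from their group for less, so this value is not independent of leaving such libraries out. The weights of single libraries were not looked at. edgeR with all 18 libraries and no such weights gave 0.39. The other 3 members were called neither by limma-voom nor by edgeR without DN 2, DN 3 and control 2.

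The comparison of treated with DN asked what germacrone changed in the diabetic kidney. edgeR called 0 of 619 entries (0%), with 23 at an unadjusted p under 0.05 (3.72%) and none of them a member, and neither DESeq2 nor limma-voom called any. The log2FC (treated over DN) was -0.030 ± 0.287 for miR-199a-5p, -0.12 ± 0.257 for miR-199a-3p, -0.88 ± 0.467 for miR-214-3p and -0.48 ± 0.440 for miR-214-5p, and the adjusted p from edgeR lay between 0.800 and 0.991. For each entry, 1 of the 6 treated libraries lay on that side of the DN median, and the negative fits leaned on DN 2, without which 3 of the 4 were positive. The log2FC was then 0.39 for miR-199a-5p, 0.21 for miR-199a-3p, -0.088 for miR-214-3p and 0.35 for miR-214-5p. The unadjusted p for miR-199a-5p was then 0.0334 in edgeR's fit, but its adjusted p was 0.883, and 2.86% of 630 entries had an unadjusted p under 0.05. With DN 3 and control 2 also left out, miR-214-3p was at 0.48 with an unadjusted p of 0.0419 and an adjusted p of 0.954 from edgeR, beside 3.14% of 636 entries with an unadjusted p under 0.05. Its 95% interval ran from 0.026 to 0.93.

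The comparison of treated with control joined treatment, disease and strain. edgeR called 0 of 619 entries (0%), with 121 at an unadjusted p under 0.05 (19.5%) and no member among them. DESeq2 called 24 (4.60% of the 522 to which it gave an adjusted p) and limma-voom 106 (17.1% of 619). The log2FC (treated over control) was 0.48 ± 0.287 for miR-199a-5p and -0.48 ± 0.467 for miR-214-3p, and all 6 treated libraries lay above the control median for the first and below it for the second. The adjusted p from edgeR was 0.365 and 0.608. The values for miR-199a-3p and miR-214-5p were 0.26 ± 0.257 and 0.20 ± 0.442, with adjusted p of 0.615 and 0.803. This comparison uses no DN library, and leaving DN 2 out of the shared fit changed its spread more than its values: miR-199a-5p was at 0.47 with an SE of 0.162 and an adjusted p of 0.0947 from edgeR, which then called 1.11% of 630 entries. limma-voom called miR-199a-5p at 0.54 with an adjusted p of 0.0323, beside its 17.1% of all entries.

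**Figure D2:**
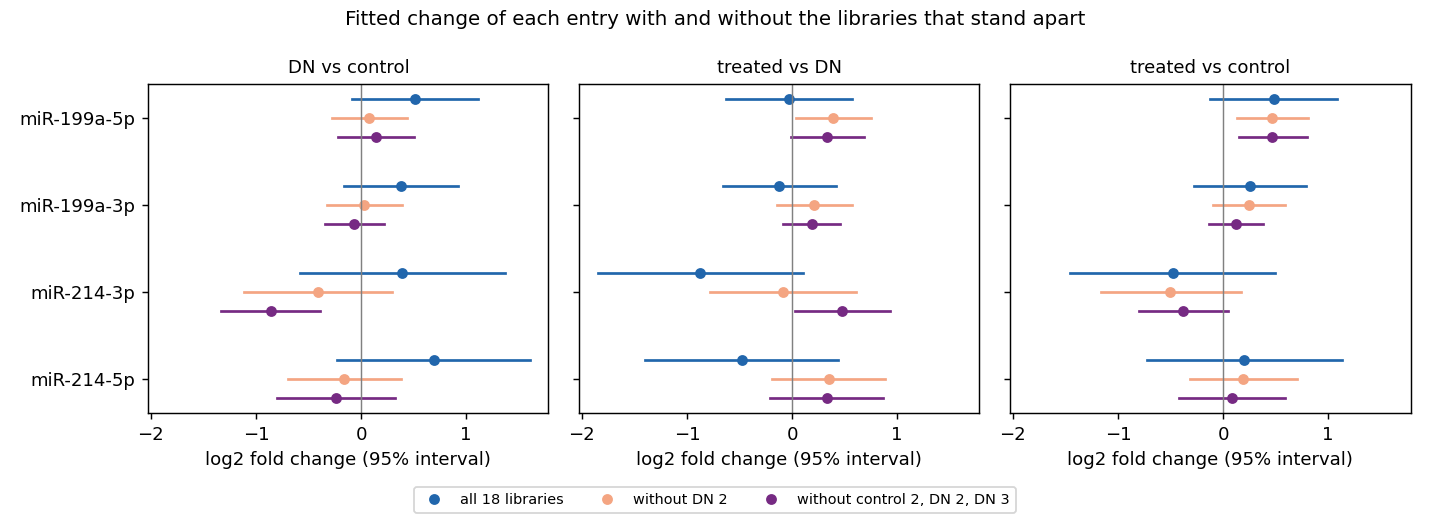
Fitted log2 fold change (points) with 95% intervals (lines) of each entry in 3 comparisons, from all 18 libraries (blue), without DN 2 (orange) and without control 2, DN 2 and DN 3 (purple). In both comparisons with DN the values of the miR-214 strands move across or towards 0 once DN 2 is left out, and in treated against control miR-199a-5p stays near 0.48 in all 3 fits.

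Ratios between strands cancel the scaling of a library. The ratio of miR-199a-5p to miR-199a-3p, 2 strands of the same hairpins, ran between 0.336 and 0.504 in treated, 0.306 and 0.458 in DN and 0.296 and 0.662 in control libraries. The 3p strand was the more abundant in every library, and the highest ratio, 0.662, was in control 2. The groups overlapped, and no exact permutation test of mean log2 ratios passed the threshold (2-sided, adjusted over 9 tests, adjusted p of 0.468 to 0.885). Control 2 weighed on this: the treated to control difference in log2 ratio was 0.19 with it and 0.34 without it (exact permutation p of 0.0260, adjusted p of 0.117). The ratio of miR-214-5p to miR-214-3p had medians of 0.0591 in treated, 0.0594 in DN and 0.0378 in control libraries. Its lowest values were 0.0161 in control 2, 0.0175 in DN 3 and 0.0230 in control 3, while the 15 others ran between 0.0343 and 0.0744. It did not differ between groups beyond its spread either (exact permutation test, adjusted p of 0.468 to 0.733).

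The largest of the 9 ratio differences was that of miR-199a-5p to miR-214-3p, which is not a ratio of 2 single loci because miR-199a-5p has further hairpins. The ratio of miR-199a-5p to miR-214-3p, in the table's counts, had 2.20, 2.99 and 4.66 as its lowest, median and highest value in treated libraries, 0.800, 2.46 and 5.27 in DN libraries and 1.05, 1.64 and 2.46 in control libraries. Treated libraries were mostly above control libraries, with an overlap between 2.20 and 2.46, and DN libraries spanned both. The mean log2 ratio was 1.58 ± 0.41 in treated, 1.14 ± 1.03 in DN and 0.66 ± 0.59 in control libraries (SD, n = 6 each). The difference of 0.92 between treated and control, a 1.89-fold change, had an exact permutation p of 0.0130 and an adjusted p of 0.117 over the 9 tests, where 0.00216 is the smallest p that 6 against 6 allows. It was 0.82 without control 2, DN 2 and DN 3, and 1.05 without control 1, where the adjusted p of the exact permutation test was 0.0390. Of the 18 settings with 1 library left out, this was the only 1 with an adjusted p under 0.05 for that difference. Without control 2, DN 2 and DN 3 the DN to control difference of the same ratio was 0.97 (exact permutation p of 0.0714, adjusted p of 0.214), against 0.48 with all libraries. The planned ratio of miR-199b-5p to miR-199a-5p could not be formed, since both names carried equal counts.

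**Figure D3:**
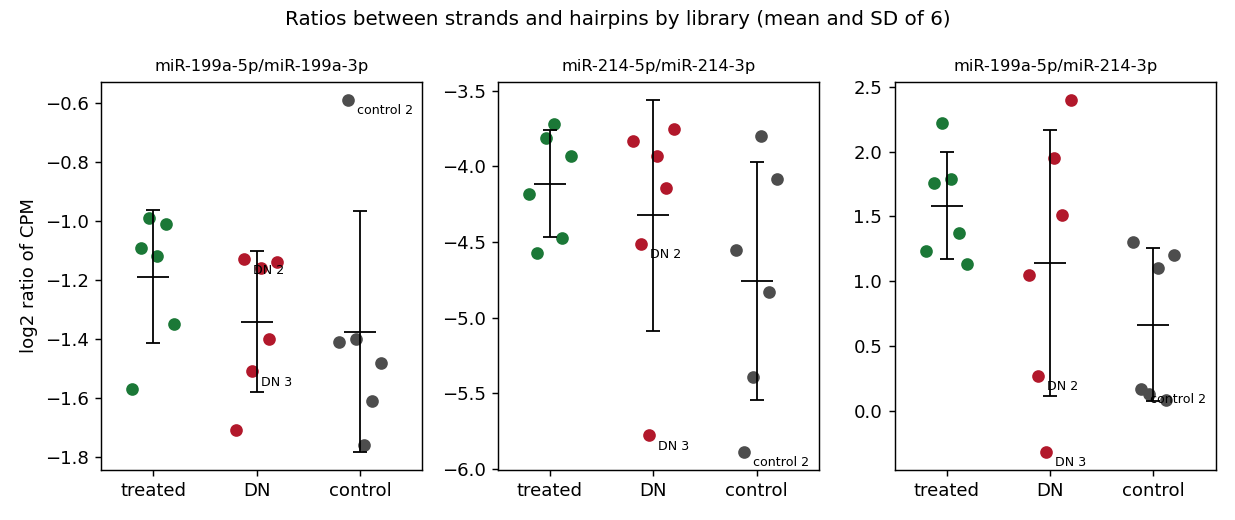
Log2 ratio of CPM for 3 pairs of entries, 1 point per library in treated, DN and control, with the mean and SD of 6 libraries in black. Control 2 is highest for miR-199a-5p over miR-199a-3p, control 2 and DN 3 are lowest for miR-214-5p over miR-214-3p, and the treated mean of miR-199a-5p over miR-214-3p (1.58) lies above the control mean (0.66).

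The members did not move as 1 unit across libraries. Over all 18 libraries, log2 CPM of miR-199a-3p and miR-214-5p were correlated with Pearson's r of 0.87 and Spearman's rho of 0.73, and those of miR-199a-5p and miR-199a-3p with r of 0.81 and rho of 0.61. The permutation p adjusted over 6 pairs was 0.000240 and 0.00594 for r and rho of the first pair, and 0.00144 and 0.0254 for those of the second. Without the 2 libraries farthest from the median of the member named first, r was 0.62 for the first pair and 0.44 for the second. Left out were DN 2 and control 2 for the first pair, and DN 2 and treated 3 for the second. Within treated, DN and control libraries r was 0.59, 0.97 and 0.81 for the first pair and 0.50, 0.96 and 0.33 for the second, the DN values again with DN 2.

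The major strand miR-214-3p stood apart from the other members. Its r with miR-214-5p, from the same hairpin, was 0.58 (rho 0.20, adjusted permutation p of 0.0556 and 0.510 for r and rho), and without DN 2 it was -0.10. With miR-199a-3p its r was 0.31 (rho -0.059, adjusted permutation p of 0.185 and 0.819 for r and rho), and without DN 2 it was -0.56. Within the control group, r between the 3p strands was -0.90, and in treated and DN libraries it was 0.091 and 0.74. With miR-199a-5p, r was 0.33 for miR-214-3p and 0.70 for miR-214-5p (adjusted permutation p of 0.185 and 0.0235), and without DN 2 these were -0.48 and 0.21. All of these relations of the miR-214 strands thus turned negative or weakened without DN 2.

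Base composition moved with miR-214-3p. For each library, the slope of log2 CPM (relative to each entry's mean) on GC content was taken over 368 other entries with a RefSeq sequence. Of the tested mouse entries 83.5% had such a sequence, and of all tested entries, which include names of other species, 65.4%. The slope per 10 percentage points of GC had a lowest, median and highest value of -0.31, -0.17 and 0.08 in treated, -0.20, -0.07 and 0.52 in DN and -0.20, 0.06 and 0.65 in control libraries. The steepest positive slopes were those of control 2 (0.65), DN 3 (0.52), control 3 (0.25) and control 5 (0.16), and these 4 libraries also held the highest miR-214-3p after DN 2. DN 2 itself had a slope of 0.09.

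Over the 18 libraries the GC slope was correlated with log2 CPM of miR-214-3p, the most GC-rich member, with r of 0.63 and rho of 0.74 (permutation p adjusted over 4 members, 0.0345 and 0.00280). The relation held within each group, with r of 0.90 in treated, 0.60 in DN and 0.90 in control libraries. It was 0.60 without the 2 libraries of steepest slope and 0.84 without DN 2. For miR-199a-3p, the most AU-rich member, r was -0.45 (rho -0.41, adjusted permutation p of 0.147 and 0.195), and it was -0.0057 in treated, -0.027 in DN and -0.98 in control libraries. Without the 2 libraries of steepest slope, and with DN 2 kept, it was -0.031, so over the 18 libraries this relation rested on them. Without DN 2, and with those 2 libraries kept, it was -0.79. For miR-199a-5p and miR-214-5p r was -0.23 and -0.16, with adjusted permutation p of 0.446 and 0.489. Without DN 2 these were -0.45 and -0.42, and without the 2 libraries of steepest slope -0.058 and 0.21. In treated, DN and control libraries r was -0.036, -0.049 and -0.27 for miR-199a-5p, and 0.49, 0.038 and -0.79 for miR-214-5p. At 54.5% GC, miR-214-5p thus went against miR-214-3p in control libraries but not in treated libraries. The cause of this was not tested.

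When each library's GC slope was taken out, an alternative added after the data were seen, the treated to control difference of miR-214-3p fell to a log2FC of -0.18, against -0.48 without the correction. Its value in treated against DN was -0.64, and in DN against control 0.46. With control 2, DN 2 and DN 3 left out and the correction made, its log2FC in DN against control was -0.67 with an adjusted p of 0.0261 from edgeR, which called 36 of 411 entries (8.76%) in that fit. With the correction, r of miR-199a-3p with miR-214-3p was 0.80 over 18 libraries (adjusted permutation p of 0.0220), though 0.16 without DN 2. The treated to control difference of the log2 ratio of miR-199a-5p to miR-214-3p was 0.75 with the correction, and that of miR-199a-5p to miR-199a-3p was 0.47 (exact permutation tests, adjusted p of 0.0877 for each).

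**Figure D4:**
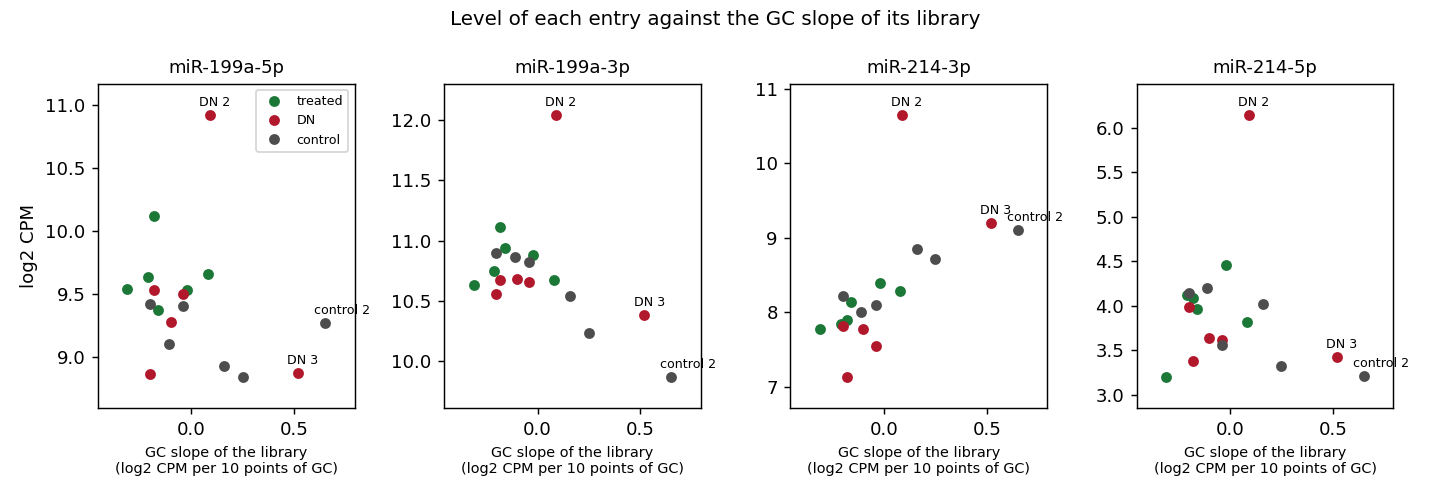
Log2 CPM of each entry against the GC slope of its library (log2 CPM per 10 percentage points of GC), 1 point per library in treated (green), DN (red) and control (grey). miR-214-3p is high where the slope is steep (rho 0.74), miR-199a-3p is low in control 2 and DN 3, and DN 2 lies far above the others in every panel at a slope of 0.09.

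Over all 18 libraries, the entries most like the cluster were largely leukocyte microRNAs. Among 185 other mouse entries with at least 100 CPM, the 5 whose log2 CPM followed the mean of the 4 members most closely were miR-223-3p (r of 0.94 over 18 libraries), miR-146b-5p (0.91), miR-342-3p (0.91), miR-142a-5p (0.86) and miR-155-5p (0.82). All but miR-146b-5p stood in the leukocyte marker list. Likeness differed between members: over the 18 libraries r of miR-142a-5p was 0.93 with miR-199a-3p and 0.38 with miR-214-3p. For miR-155-5p the same r values were 0.50 and 0.90. Of these microRNAs, miR-223-3p is known from neutrophils and other myeloid cells, miR-142a-5p from blood cells at large, and miR-155-5p and miR-146b-5p from activated immune cells. Likeness was carried to a large part by DN 2, where miR-223-3p reached 5099 CPM, against a mean of 375 CPM over the 18 libraries. Without DN 2 the r of these 5 was 0.61, 0.55, 0.53, 0.49 and 0.24, and the first 3 were still the closest. miR-155-5p was then at rank 36 of 185, and the next closest were miR-17-5p and miR-93-5p (r of 0.52 each), which are not in the leukocyte list. The cut of 100 CPM was set on the mean over all 18 libraries, also for the ranking without DN 2. miR-223-3p passed that cut only with DN 2, so its place in the second ranking is not independent of that library. The part of leukocyte RNA in the members' levels was not tested.

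Markers of smooth muscle, mesangial cells and pericytes did not follow the cluster in DN 2. No list of fibroblast markers was used, and the part of any of these cells in the members' levels was not tested. The marker list of smooth muscle, mesangial and pericyte microRNAs had 6 of 6 entries tested and summed to 43868 to 63769 CPM in treated, 23267 to 55202 CPM in DN and 27675 to 61293 CPM in control libraries. In DN 2 it came to 31413 CPM, rank 14 of 18, whereas all 4 members were at rank 1. DN 3 and control 2 held the ranks 18 and 17. By the same kind of sum, DN 2 was at rank 18 for the endothelial, tubule, red blood cell, striated muscle and miR-29 lists. It was at rank 1 for the leukocyte and the injury and fibrosis lists, and at rank 2 for the liver list. In DN against control, 1 of the 6 smooth muscle, mesangial and pericyte entries was fitted higher and 5 lower. Their median log2FC was -0.094 and none was called. The higher one, miR-152-3p, had the largest value at 0.45 ± 0.254, and 0.75 ± 0.254 in treated against control (adjusted p of 0.684 and 0.173 from edgeR). In treated against DN it was 5 higher and 1 lower (median 0.21), and in treated against control 4 higher and 2 lower (median 0.12), none called in either.

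Other microRNAs tied to kidney injury and fibrosis gave a background for these values. Of the injury and fibrosis list 14 of 17 entries were tested, with miR-377-3p, miR-216a-5p and miR-217-5p under the count filter. In DN against control 12 were fitted higher and 2 lower, with a median log2FC of 0.49, against 306 of all 532 distinct entries higher and a median of 0.080. None was called by edgeR. miR-21a-5p, a widely used marker of kidney injury, had the largest value at 1.30 ± 0.400 (adjusted p of 0.277 from edgeR), and 0.82 without DN 2. Without DN 2, 6 were higher and 8 lower (median -0.11), so this list too depended on that library. The entry then called was miR-150-5p, also a leukocyte marker, which was lower in DN (-1.21, adjusted p of 0.0198 from edgeR).

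In treated against DN, 2 of the 14 injury entries were fitted higher and 12 lower (median -0.42, none called), and without DN 2 the split was 7 and 7. In treated against control 6 were higher and 8 lower (median -0.22, none called). The miR-29 family, which restrains collagens and other matrix genes, had 7 of 7 entries tested. In DN against control 1 was fitted higher and 6 lower with a median of -0.12, in treated against DN 4 higher and 3 lower (median 0.028) and in treated against control 3 higher and 4 lower (median -0.023), with none called in any of the 3 comparisons.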

How the data were processed

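Kidney small RNA of 18 libraries was analysed from 1 deposited table. Per the labels' protocols, RNA was extracted with Trizol, libraries were prepared with TruSeq Small RNA kits for an Illumina HiSeq, and reads were filtered with ACGT101-miR. Trimmomatic 0.32, BWA, SAMtools and edgeR are named in the submitters' processing notes. Neither genome build nor microRNA release is given in the sources used here. In the deposited table, raw columns hold estimated counts, which were rounded to whole numbers. Its normalized columns hold a signal, the authors' raw value times 1 factor per library, and were used only for that factor, as an alternative. The 350 rows without a name, with 0.0136% to 0.148% of a library's counts, were left out.

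edgeR 4.0.16 (R 4.3.3; TMM factors, filterByExpr with a minimum count of 10, quasi-likelihood test, group as the only factor) was fitted to all 18 libraries and 619 entries, with 2-sided p-values adjusted by Benjamini-Hochberg over all 619. Log2 CPM used a prior count of 2. Ratios were compared by exact permutation tests and correlations by 100000 permutations (SciPy 1.17.1). Loci come from GENCODE M21. Alternatives were RLE factors, library size only, other filters, DESeq2 1.42.0, limma-voom (limma 3.58.1), a replicate block, fits of only the 2 groups compared, equal rows counted once, rows of a name summed, and libraries left out. Added after seeing the data were the authors' factors and the GC correction. The fit was tested on simulated data. The members, lists and left-out libraries were chosen with earlier results of these data known. Named entries are the members, the 5 most like them at 100 CPM or more, and at most 2 of each list by size of change. List entries past the threshold, and the closest entries without DN 2, were named after their values were seen. Intervals cover only the spread between libraries.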

Additional observations from a re-analysis of the deposited data

Results flagged for a closer look

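Within-group outliers were looked for in 21 sets of 6 libraries (4 entries and 3 log2 ratios in 3 groups) by setting the gap between the extreme library and its neighbour against the whole range, and 7 sets had an extreme library past the 95% limit, where chance gives about 1 in 20. In 4 of them DN 2 was the extreme: miR-199a-5p at 1935 CPM, miR-199a-3p at 4224 CPM, miR-214-3p at 1608 CPM and miR-214-5p at 70.0 CPM. The same library had the highest sum of leukocyte markers (25968 CPM) and the lowest sum of tubule markers (44067 CPM) of all 18, and their part in the levels of the members was not tested. Among treated libraries, treated 3 stood out for miR-199a-5p at 1109 CPM. Control 2 stood out with a log2 ratio of miR-199a-5p to miR-199a-3p of -0.590, and DN 3 with a log2 ratio of miR-214-5p to miR-214-3p of -5.78. These were the 2 libraries of steepest GC slope, at 0.65 and 0.52.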

How the results depend on the processing

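With any 1 library left out, edgeR called 0 to 6 entries in DN against control (6 without DN 2 or without DN 3, 1 without control 2), 0 in treated against DN and 0 to 7 in treated against control (7 without DN 2, 3 without DN 3), and no member in any of these fits. The log2FC ranges for DN against control were 0.079 to 0.72 for miR-199a-5p, 0.033 to 0.55 for miR-199a-3p, -0.41 to 0.63 for miR-214-3p and -0.16 to 0.91 for miR-214-5p. For treated against DN they were -0.21 to 0.39, -0.26 to 0.21, -1.09 to -0.088 and -0.68 to 0.35, and for treated against control 0.40 to 0.56, 0.20 to 0.35, -0.58 to -0.32 and 0.13 to 0.38, in the same order. The log2 ratio of miR-199a-5p to miR-199a-3p in DN against control ran from -0.039 to 0.19 (-0.0062 without DN 2, -0.0033 without DN 6, -0.039 without control 4, -0.011 without control 5). That of miR-214-5p to miR-214-3p in treated against DN ran from -0.080 (without DN 3) to 0.33. For miR-199a-5p to miR-214-3p in treated against control it ran from 0.79 to 1.05. The value of 1.05, without control 1, had an adjusted p of 0.0390 (exact permutation test), the only 1 of the 18 under 0.05.

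Without DN 2, r was -0.48 for miR-199a-5p with miR-214-3p, -0.56 for miR-199a-3p with miR-214-3p, -0.10 between the miR-214 strands and 0.21 for miR-199a-5p with miR-214-5p. Without control 2, DN 2 and DN 3, edgeR called 51 entries in DN against control and 50 in treated against control. The log2FC was then -0.063 for miR-199a-3p, -0.86 for miR-214-3p and -0.24 for miR-214-5p in DN against control, and 0.33, 0.19, 0.48 and 0.33 for miR-199a-5p, miR-199a-3p, miR-214-3p and miR-214-5p in treated against DN. The log2 ratios in treated against DN were -0.14 for miR-199a-5p to miR-214-3p and -0.20 for miR-214-5p to miR-214-3p. The r values were -0.40, -0.22, 0.11 and 0.58 for miR-199a-5p with miR-214-3p, miR-199a-3p with miR-214-3p, miR-199a-5p with miR-214-5p and miR-199a-3p with miR-214-5p.

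DESeq2 called 4 entries in DN against control and 24 in treated against control, and gave no p for miR-214-5p in any of the 3 comparisons. limma-voom called 91 and 106, with a log2FC of -0.83 for miR-214-3p and -0.12 for miR-214-5p in DN against control, 0.29, 0.20, 0.39 and 0.37 (order as above) in treated against DN, and 0.54 for miR-199a-5p in treated against control. A filter of 10 CPM in 6 libraries gave 2 calls in DN against control, and a fit of only the 2 groups gave 56 in treated against control. Without a filter miR-199a-5p was at 0.0055 in treated against DN. With library size only, miR-214-5p was at -0.0042 in treated against control, and r was 0.74 for miR-199a-5p with miR-214-5p and 0.66 between the miR-214 strands.

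Fits of the entries with a RefSeq sequence called 2 in DN against control without the GC correction and, with it, 1 in DN against control and 5 in treated against control. miR-199a-5p was then at 0.031 in treated against DN, and r was 0.80 between the 3p strands and 0.64 between the miR-214 strands. With the correction and without DN 2, r was -0.47 for miR-199a-5p with miR-214-3p, -0.027 between the miR-214 strands, 0.60 for miR-199a-3p with miR-214-5p, 0.43 between the miR-199a strands and 0.46 for miR-199a-5p with miR-214-5p. With the correction and without control 2, DN 2 and DN 3 there were 36 calls in DN against control and 31 in treated against control. The log2FC was -0.15 for miR-199a-3p, -0.67 for miR-214-3p and -0.16 for miR-214-5p in DN against control, and 0.34, 0.19, 0.47 and 0.32 (order as above) in treated against DN. Apart from the libraries left out by construction, the cause of these changes was not tested.

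Equal replicate numbers did not pair the libraries: r of the deviations from the group means was -0.329 to 0.262 over the 18 pairs of equal number, over 0.1 in 3, and 0 libraries correlated best with their own number. With the number as a block edgeR called 0 entries in each comparison, miR-199a-5p was at 0.13 in treated against DN, and the ratio of miR-199a-5p to miR-214-3p in treated against control stayed at 0.92 (sign-flip permutation, adjusted p of 0.450).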

Other observations

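A related name of another species, bta-miR-199c, stood on 2 rows of the table and was looked at after its values were seen. It had 67.9 to 110 CPM in treated libraries, 10.3 to 203 CPM in DN libraries and 7.05 to 127 CPM in control libraries. The highest value was again in DN 2 and the lowest values were in control 2 and DN 3.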
